A study of Mus musculus with 4 samples.

Results

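The genes described here are 41 enzymes of purine, pyrimidine and deoxynucleotide (dNTP) metabolism, named in a list and matched by exact symbol to the array annotation. A gene was represented by the probe set, among those with 1 gene symbol, that had the highest mean signal over the 4 arrays. On this rule 40 of the 41 were measured, out of 18193 genes on the array. Impdh2 had no probe set with that symbol alone and was not analysed here. Of the 40, 37 had a mean signal at or above that of the median gene (178.8) and were tested among 9097 genes; Tyms, Ada and Ampd1 were dimmer.

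The samples were C2C12 cells, an established mouse myoblast line, moved from growth medium (25 mM glucose, 10% fetal bovine serum) to 2% horse serum to differentiate. During differentiation they received vehicle alone, tranylcypromine (TC) or S2101, with 2 arrays of vehicle and 1 of each compound. Both compounds are given in the labels as inhibitors of LSD1, the histone demethylase encoded by Kdm1a. RNA was taken 48 h later, and no dose is given in the labels. Whether each array is a separate culture is not stated in the labels. The p-values therefore reflect array-to-array spread only, and that spread may be technical.

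Purine and pyrimidine nucleotides are built on phosphoribosyl pyrophosphate by the de novo routes, or recovered from bases and nucleosides by salvage kinases and phosphoribosyltransferases. Ribonucleotide reductase and the thymidylate enzymes then make the dNTPs for DNA, and several of these enzymes are made mainly in S phase. Deaminases, nucleotidases and xanthine dehydrogenase carry the purines towards uric acid, and in muscle AMP deaminase, adenylosuccinate synthetase and adenylosuccinate lyase form the purine nucleotide cycle.

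Muscle markers were bright on every array: Myog, a myogenic transcription factor, lay between 11963 and 13385.5 and Acta1, skeletal actin, between 25836 and 28911. The summed signal of 16 skeletal muscle markers was 121610 and 120180 with vehicle, 125260 with TC and 112750 with S2101. The leukocyte marker Ptprc (at most 16.4), the endothelial marker Pecam1 (at most 8.32) and the adipocyte marker Adipoq (at most 24.5) were near the bottom of the signal range. Other markers of those lists were brighter, namely Cd14 (338 to 438) and Csf1r (105 to 166) among the leukocyte markers and Lpl (669 to 901) and Pparg (39.7 to 118) among the adipocyte markers. Among the endothelial markers Tek (41.5 to 105) was brighter than Pecam1. The summed signal of 8 leukocyte markers was 641 and 655 with vehicle, 543 with TC and 688 with S2101. Of 4 smooth muscle markers Acta2 was bright (27329.5 to 31972) and Myh11 dim (at most 35.7). Arrays correlated at r = 0.987 to 0.990 across probe sets. Precision is limited throughout by having 4 arrays.

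Tk1, Dctd, Dut and Dtymk, enzymes of dNTP supply in S phase, together with deoxycytidine kinase (Dck) and the diphosphate kinase gene Nme1 were lower with the inhibitors, while xanthine dehydrogenase (Xdh), AMP deaminase 3 (Ampd3) and the surface nucleotidase Nt5e were higher. The de novo enzymes did not pass the test in either direction. In the comparison of the inhibitor arrays (n = 2, 1 per compound) with the vehicle arrays (n = 2), 6 of 37 genes fell, 3 rose and 28 did not pass (limma, Benjamini-Hochberg adjusted p under 0.05 over 9097 genes). Over all genes tested 3.74% fell and 4.28% rose. Differences are in log2(signal + 50), a scale that understates the change of dim genes. On it the median over the 37 genes was -0.10, against 0.01 over all genes tested. Both inhibitor arrays lay below both vehicle arrays in 16 of the 37 genes, where 23.4% of all genes did so, and above both in 9, where 27.6% of all genes did so.

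**Figure D1:**
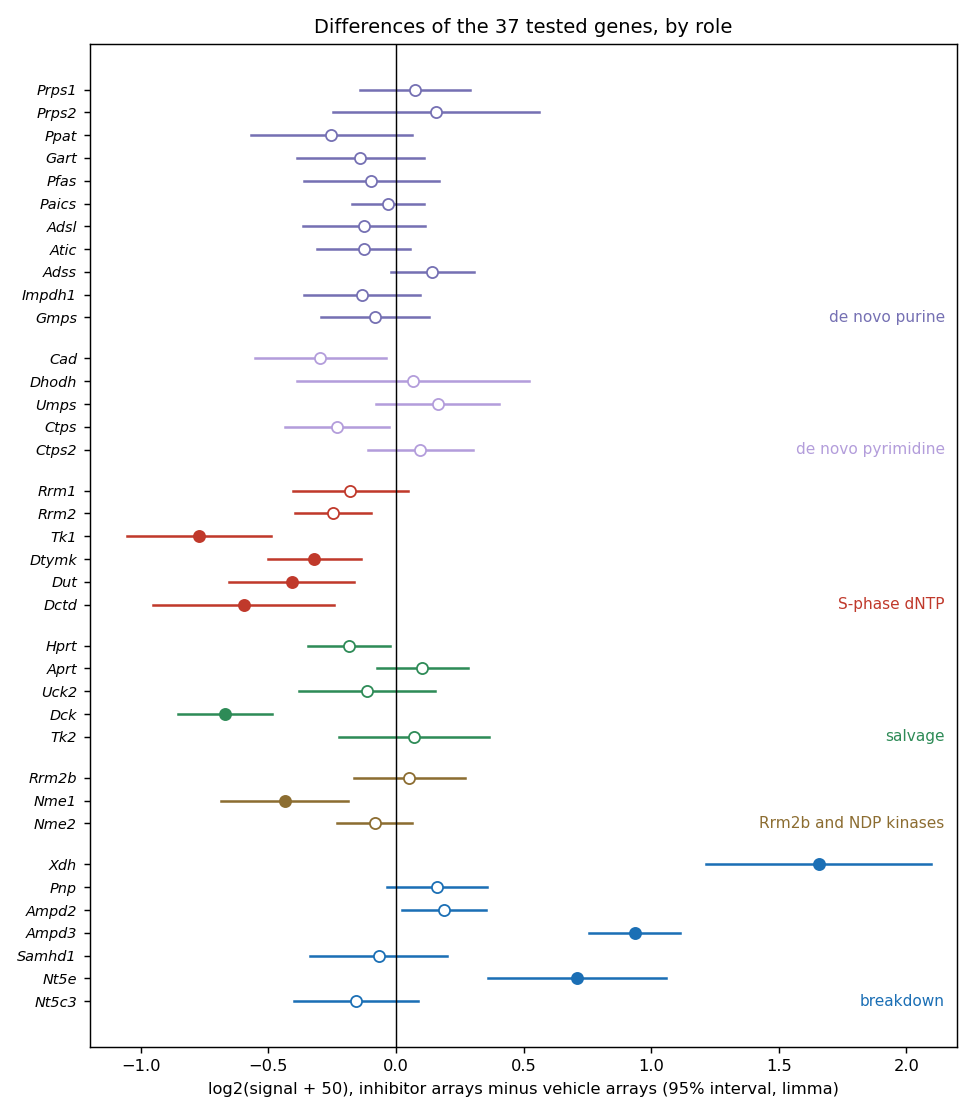
Log2 difference between the inhibitor arrays and the vehicle arrays for the 37 tested genes, ordered by role, with 95% intervals from limma; filled points passed at an adjusted p under 0.05 and open points did not. The filled points are Tk1, Dtymk, Dut, Dctd, Dck and Nme1 to the left of 0 and Xdh, Ampd3 and Nt5e to the right.

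Of the 6 S-phase dNTP enzymes tested, 4 fell, 2 did not pass and 0 rose, and the median difference was -0.36. Thymidine kinase 1 (Tk1), which phosphorylates thymidine in dividing cells, had signals of 504 and 466 with vehicle, 256 with TC and 270.1 with S2101. Both inhibitor arrays were well below both vehicle arrays, and the log2 difference was -0.77 ± 0.13 (SE; adjusted p = 0.00472, limma), the largest fall among the 37 genes. Dctd, the dCMP deaminase that supplies dUMP for thymidylate synthesis, read 265 and 244 with vehicle, 143 with TC and 160.1 with S2101. Its groups did not overlap and its log2 difference was -0.60 ± 0.16 (adjusted p = 0.0484, limma). Dctd reached the signal filter only through its vehicle arrays, and without the filter the call ended (0.192, limma). In bulk RNA, fewer cells in S phase and less of a transcript per cell cannot be told apart.

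Dut, the dUTPase that keeps uracil out of DNA, read 1000.3 and 1132 with vehicle, 729.8 with TC and 853 with S2101, with no overlap, and fell (log2 difference -0.41 ± 0.11; adjusted p = 0.0486, limma). Dtymk, the kinase that makes dTDP from dTMP, read 1994 and 2109 with vehicle against 1592 and 1676, and fell (-0.32 ± 0.08; adjusted p = 0.0403, limma). These falls were smaller than that of Tk1, and again the groups did not overlap. Leaving out 1 array at a time kept the call of Tk1 each time, but Tk1 did not pass when every gene was tested without the filter (0.0532, limma). Dctd lost its call without any of the arrays (adjusted p = 0.235 and 0.1385 without vehicle 1 and 2, 0.140 without TC and 0.0643 without S2101, limma). Dtymk lost it without vehicle 1 (0.0934), vehicle 2 (0.242) or TC (0.105, limma), and Dut without vehicle 2 (0.229) or TC (0.176, limma). Dtymk and Dut also lost their calls without the filter (0.105 and 0.157), without the intensity trend (0.103 for each) and with probe sets averaged (0.0707 and 0.1175, limma).

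The subunits of ribonucleotide reductase, which converts ribonucleotides to deoxyribonucleotides, differed less. Rrm2, the S-phase subunit, read 8472 and 9045 with vehicle, 7451 with TC and 7286 with S2101. The inhibitor arrays were lower without overlap, but the difference of -0.25 ± 0.07 did not pass (adjusted p = 0.0514, limma). Rrm2 passed in 4 of 13 alternative settings, such as quantile normalization (0.0321), centring on array medians (0.02995) and a filter on the 75th percentile (0.0497, limma). It missed in the others, such as without the filter (0.153), without the intensity trend (0.175) and with probe sets averaged (0.0629, limma). The large subunit Rrm1 read 2125 and 2250.3 with vehicle, 2131 with TC and 1740 (1739.87) with S2101. On this probe set only the S2101 array stood apart, and the difference was -0.18 ± 0.10 (0.339, limma). A second bright Rrm1 set read 1044 and 1016 with vehicle, 823 with TC and 872 with S2101, so there both inhibitor arrays were lower. Rrm2b, the reductase subunit induced by p53 that serves cells outside S phase, read 1029 and 926 against 1052 and 978, overlapped, and stood at 0.05 ± 0.10 (0.811, limma). A second bright Rrm2b set read 614 and 638 with vehicle, 721 with TC and 702 with S2101. There both inhibitor arrays were higher, with a difference of 0.17. The difference between Rrm2 and Rrm2b in their response was not tested.

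Thymidylate synthase, Tyms, could not be followed in the same way. Its single-symbol probe set of highest mean read 52.3 and 52.3 with vehicle, 21.3 with TC and 52.2 with S2101, all near the offset of 50, and it was not tested. Another probe set, which the annotation shares between Tyms and the pseudogene Tyms-ps, read 832.5 and 814.9 with vehicle, 542.7 with TC and 544.5 with S2101. Its difference of -0.56 lies within the span of the S-phase enzymes above, but its signal cannot be assigned to Tyms alone and was not tested.

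**Figure D2:**
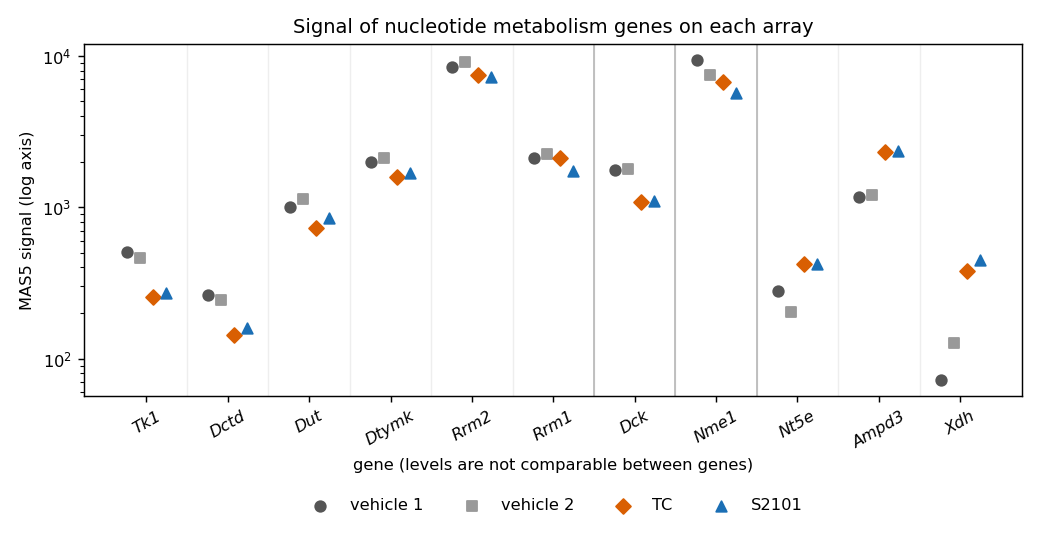
MAS5 signal (log axis) on each of the 4 arrays for the 4 S-phase enzymes that fell, both S-phase reductase subunits, Dck, Nme1 and the 3 breakdown genes that rose; levels cannot be compared between genes because probe sets differ. In Tk1, Dctd, Dut, Dtymk, Rrm2, Dck and Nme1 the TC and S2101 points lie below both vehicle points, and in Nt5e, Ampd3 and Xdh above them.

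In the salvage group 1 of 5 genes fell, 4 did not pass, and the median difference was -0.11. Dck, which phosphorylates deoxycytidine and also accepts deoxyadenosine and deoxyguanosine, read 1769 and 1779.85 with vehicle, 1086 with TC and 1105 with S2101. The 2 vehicle arrays nearly coincided, and so did the 2 inhibitor arrays, far below them. The log2 difference was -0.67 ± 0.08 (adjusted p = 0.00107, limma), and the call held when any array was left out (adjusted p at most 0.00347). Tk2, the mitochondrial thymidine kinase, read 306 and 340.3 against 354 and 330.3, overlapped with vehicle and stood at 0.07 ± 0.13 (0.812, limma).

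The purine phosphoribosyltransferases and uridine kinase made up the rest of the salvage group. Hprt, which recovers hypoxanthine and guanine, read 4754 and 4576 with vehicle against 4239.7 and 3962, lower without overlap, but did not pass (-0.18 ± 0.07; adjusted p = 0.160, limma). Aprt, which recovers adenine, was slightly above both vehicle arrays (2835 and 2863 against 2894 and 3246; 0.10 ± 0.08; 0.499, limma). Uck2, a uridine-cytidine kinase, was lower on the TC array alone (807 and 825 against 667 with TC and 844 with S2101; -0.11 ± 0.12; 0.641, limma).

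The nucleoside diphosphate kinases exchange the terminal phosphate among nucleotides. Nme1 read 9395 and 7488 with vehicle, 6743 with TC and 5674 with S2101. All inhibitor values were below both vehicle values, yet the vehicle arrays themselves differed widely. The log2 difference was -0.44 ± 0.11 (adjusted p = 0.0403, limma), and the call ended without vehicle 1 (-0.27; 0.1998) and without S2101 (-0.31; 0.133, limma). The probe set is of the type whose probes may hybridise to other sequences (suffix _x_at). A second Nme1 probe set, at 4089 and 3942 with vehicle against 3751 and 3212, gave -0.21, and with all its probe sets averaged Nme1 no longer passed (-0.32; 0.0951, limma). Nme2, its close paralog, read 19847 and 19057 against 19014 and 17700.5 and did not pass (-0.08 ± 0.07; 0.502, limma).

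As 4 S-phase enzymes and Dck fell, the 250 bases before the annotated start were searched on both strands for 4 short motifs, with the RefSeq promoters of GRCm38.p6; 36 of the 41 genes had an entry. The motifs were an E2F-like site (TTTCGCGC, TTTGGCGC or TTTCCCGC), the NF-Y box CCAAT, the E-box CACGTG and the cell cycle homology region TTTGAA. Among the 7 S-phase genes 0 held the E2F-like letters, which 1.53% of all 32851 promoters held. The NF-Y box was present in 4 of the 7 (Dtymk, Rrm1, Dctd and Rrm2), the E-box in 2 (Dtymk and Tyms) and the TTTGAA letters in 0. Of all promoters, 33.8% held the NF-Y box and 6.02% the E-box, and 5252 of 32851 held TTTGAA. A gene was counted if any of its listed starts had the letters, so gene counts and promoter shares are not like for like. Counted by promoter, the 36 genes had 47. Of these, 14 (29.8%) held the NF-Y box, 8 the E-box, 7 TTTGAA and 1 the E2F-like letters. Whether any motif was enriched in the S-phase genes was not tested. The matches are descriptions of letters in a window and not of bound sites. The annotated gene limit lies further upstream than the start used for Tk1 (117826087), Dtymk (93802068) and Ampd3 (110767790). The Tk1 and Dtymk windows thus lie partly inside the gene, and every Ampd3 window lies wholly inside it. The 4 windows that follow are written 5′ to 3′ on the strand of the gene, with matches in capitals. They belong to the enzyme that fell most, the S-phase enzyme with most matches, the salvage kinase that fell, and for contrast a gene that rose.
Tk1, chr11:117826015-117826264, minus strand: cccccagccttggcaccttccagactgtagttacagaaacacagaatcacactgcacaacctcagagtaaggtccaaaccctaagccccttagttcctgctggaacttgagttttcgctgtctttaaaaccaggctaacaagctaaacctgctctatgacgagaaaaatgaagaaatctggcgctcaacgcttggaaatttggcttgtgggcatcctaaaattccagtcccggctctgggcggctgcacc
Dtymk, chr1:93801935-93802184, minus strand: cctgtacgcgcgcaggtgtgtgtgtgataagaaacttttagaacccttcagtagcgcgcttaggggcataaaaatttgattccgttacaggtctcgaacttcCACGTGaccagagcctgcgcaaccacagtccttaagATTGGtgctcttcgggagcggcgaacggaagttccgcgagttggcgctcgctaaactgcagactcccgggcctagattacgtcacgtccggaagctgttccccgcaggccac
Dck, chr5:88764763-88765012, plus strand: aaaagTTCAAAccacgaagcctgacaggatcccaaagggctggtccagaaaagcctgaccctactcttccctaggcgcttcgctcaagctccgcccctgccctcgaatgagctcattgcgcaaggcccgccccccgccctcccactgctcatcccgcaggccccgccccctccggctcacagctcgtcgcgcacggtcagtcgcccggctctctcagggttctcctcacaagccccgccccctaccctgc
Ampd3, chr7:110768372-110768621, plus strand, the start listed first of 3: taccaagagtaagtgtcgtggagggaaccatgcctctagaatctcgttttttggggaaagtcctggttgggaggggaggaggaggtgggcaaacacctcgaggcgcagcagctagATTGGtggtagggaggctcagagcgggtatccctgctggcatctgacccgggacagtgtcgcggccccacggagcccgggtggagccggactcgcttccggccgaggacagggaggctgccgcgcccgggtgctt
The Tk1 window held none of the 4 motifs. The Dtymk window held the E-box 148 and the NF-Y box 112 bases before the start, the latter on the other strand and so printed as ATTGG. In Dck the TTTGAA letters, on the other strand and printed as TTCAAA, lay 245 bases before the start, and in Ampd3 the NF-Y box, also on the other strand, lay 135 bases before it. Of the other Ampd3 starts, the second had the E-box at 78 and TTTGAA at 209 bases, and the third the NF-Y box at 121 bases.

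Breakdown genes gave the largest increases. Of 7 tested, 3 rose, 4 did not pass and 0 fell, with a median of 0.19. Xdh makes uric acid from hypoxanthine and xanthine, the last steps of purine breakdown. Its signals were 72.5 and 126 with vehicle, 378 with TC and 451 with S2101, so both inhibitor arrays were far above both vehicle arrays, with a ratio of mean signals of 4.175. The log2 difference was 1.66 ± 0.20 (adjusted p = 9.06e-04, limma), and it was called without any 1 array too (1.395 to 1.92). Xdh reached the signal filter only through the inhibitor arrays, so the test was open to it because of its high group; with every gene tested it passed at an adjusted p of 0.0337 (limma). The vehicle arrays were near the offset, and the size depends on it: 2.00 when the offset was set to 2% of the trimmed mean of 500, and 0.93 when set to 50%. The summed signal of 6 endothelial markers, a cell type in which Xdh is known to be made, was 167 and 89.7 with vehicle, 168 with TC and 218 with S2101, and that of 6 measured adipocyte markers was 795 and 962 with vehicle, 953 with TC and 1064 with S2101. Among the endothelial markers Tek read 41.5 and 47.6 with vehicle, 85.5 with TC and 105 with S2101. Tek, Tie1 and Emcn were above both vehicle arrays on both inhibitor arrays, while Pecam1, Cdh5 and Kdr overlapped. All these endothelial markers were too dim for the main test. The part of the endothelial and adipocyte markers in the Xdh result was not tested.

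Ampd3 is the AMP deaminase first known from red cells, and it turns AMP into IMP. It read 1168 and 1213 with vehicle, 2309 with TC and 2336 with S2101. The arrays formed 2 tight pairs, and the ratio of mean signals was 1.95. The log2 difference was 0.94 ± 0.08 (adjusted p = 1.33e-04, limma), the smallest p among the 37 genes. It was past the threshold under each of the 13 alternative settings run, with values of 0.84 to 0.96. Nt5e, the surface enzyme CD73 that makes adenosine from extracellular AMP, read 282 and 202 with vehicle against 423 on each inhibitor array (0.71 ± 0.16; 0.0210, limma). Its call ended without vehicle 2 (0.51; 0.0991), TC (0.71; 0.0740) or S2101 (0.71; 0.0618, limma). It also ended when its 3 probe sets were averaged (0.27; 0.282, limma), the other 2 being dim, with mean signals of 70.7 and 16.5.

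The other AMP deaminases did not follow Ampd3. Ampd1, the isoform of adult skeletal muscle, read 44.6 and 4.20 with vehicle, 2.35 with TC and 5.32 with S2101, below the offset on every array, and was not tested. Ampd2 read 2896 and 2815 against 3336 and 3187, above vehicle without overlap, but its difference of 0.19 ± 0.07 did not pass (adjusted p = 0.159, limma). Its other bright probe set pointed the opposite way, with 322 and 331 against 279 and 210.5, a difference of -0.36. Adenosine deaminase, Ada, read 132 and 143 with vehicle and 80.6 and 79.2 with the inhibitors. The groups did not overlap (-0.53), but Ada was too dim for the main test, and it did not pass when every gene was tested (adjusted p = 0.307, limma).

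The remaining breakdown genes stayed near vehicle. Pnp, purine nucleoside phosphorylase, read 1889.9 and 2106 against 2341 and 2135 (0.16 ± 0.09; adjusted p = 0.324, limma). Samhd1, which destroys dNTPs outside S phase, read 426 and 482 against 428 and 432 (-0.07 ± 0.12; 0.801, limma). Nt5c3, a cytosolic pyrimidine nucleotidase, read 830.1 and 873 against 828 and 695 (-0.16 ± 0.11; 0.451, limma). Of these 3 genes only Samhd1 overlapped with vehicle, and a second bright Samhd1 probe set differed the other way (0.23).

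None of 11 de novo purine genes passed over all genes tested, and 0 of them had an unadjusted p under 0.05 (limma). Of all 9097 genes tested 2029 had such a p. Their median was -0.10, with 8 differences below 0. The first steps build the purine ring on phosphoribosyl pyrophosphate. Prps1 (0.07 ± 0.10) and Prps2 (0.16 ± 0.18), which make that precursor, overlapped with vehicle. A probe set that the annotation shares between Prps1 and Prps1l3 differed the other way (-0.23). It read 679.3 and 676.5 with vehicle, 616.6 with TC and 530.9 with S2101. Its signal cannot be assigned to Prps1 alone and was not tested. The vehicle arrays for Prps2 read 1277 and 805, the widest spread between them among the 37 genes. Ppat, the amidotransferase of the committed step, read 443 and 349 with vehicle against 314 and 331, the lowest de novo purine difference (-0.25 ± 0.14; adjusted p = 0.339, limma). Gart read 561 and 568 against 532 and 485 (-0.14 ± 0.11; 0.515, limma), Pfas stood at -0.10 ± 0.12 and Atic at -0.13 ± 0.08. Paics, which shares the region upstream of its start with Ppat on the opposite strand, was nearly level at 10676 and 11150.2 against 10645 and 10701 (-0.03 ± 0.06; 0.828, limma).

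The branch from IMP to the adenine and guanine nucleotides was likewise without a call. Adss, an adenylosuccinate synthetase, read 3125 and 3117 against 3558 and 3343. It was the only de novo purine gene above both vehicle arrays on both inhibitor arrays (0.14 ± 0.07; adjusted p = 0.291, limma). Its paralog Adssl1, from a related list and named after its value was seen, read 1048 and 1062 with vehicle, 1483 with TC and 1221 with S2101. Adssl1 did not pass (0.34 ± 0.10; 0.0816, limma). Adsl, the lyase that follows the synthetase, stood at -0.13 ± 0.11 and overlapped. On the guanine side Impdh1, the dehydrogenase of IMP, read 661 and 662 against 609 and 589 (-0.13 ± 0.10; 0.495, limma). Gmps read 2533 and 2429 with vehicle, 2572 with TC and 2130.9 with S2101, an overlap (-0.08 ± 0.10; 0.680, limma).

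The de novo pyrimidine genes were split. Of 5 genes 0 passed, and the median was 0.07. An unadjusted p under 0.05 (limma) was reached by 2 of the 5, and by 2029 of all 9097 genes tested. Cad, the protein with the first 3 enzyme activities of the route, read 541 and 539 with vehicle, 410 (409.544) with TC and 453 with S2101. Both inhibitor arrays were clearly lower and the vehicle pair was tight, but the difference of -0.30 ± 0.12 did not pass (adjusted p = 0.159, limma). Ctps, which makes CTP from UTP, read 1345 and 1454 against 1238 and 1135 and did not pass either (-0.23 ± 0.09; 0.169, limma). Its paralog Ctps2 (0.09 ± 0.09) and Umps, the UMP synthase (510.2 and 503 against 563 and 583; 0.16 ± 0.11), were above vehicle on both arrays and did not pass (0.608 and 0.419, limma). Dhodh, the mitochondrial step, was too variable to place, with 159 and 262 on the vehicle arrays (0.07 ± 0.20; 0.891, limma).

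Where a gene had further bright probe sets, most pointed the same way as the one used. The 2 other bright sets of Dtymk gave -0.25 and -0.26, that of Dck -0.57, those of Rrm2 -0.19 and -0.31, and that of Rrm1 -0.27. The second bright Ppat set gave -0.34 and that of Cad -0.15. The signs differed for Ampd2, Samhd1 and Uck2.

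**Figure D3:**
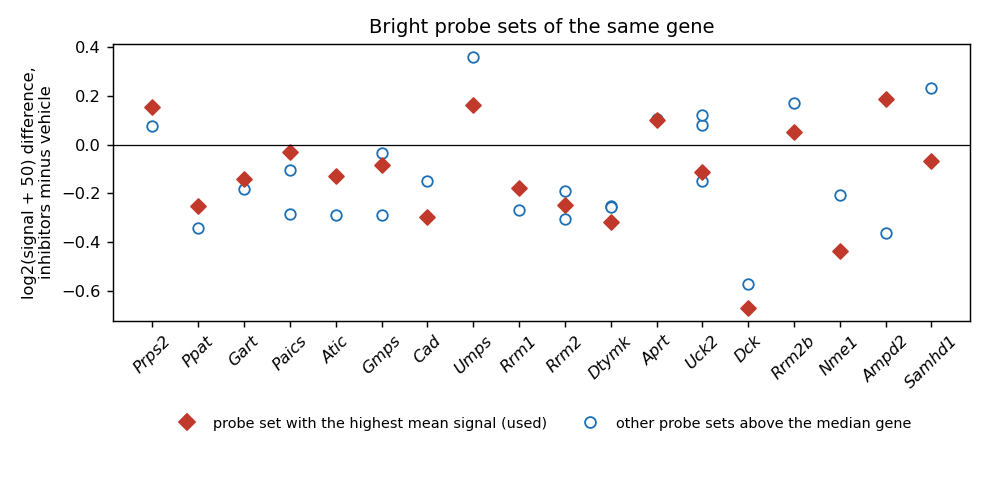
Log2 difference between inhibitor and vehicle arrays for each probe set with a mean signal at or above the median gene, for genes with more than 1 such set; diamonds are the sets used and open circles the others. Points for Dck, Dtymk, Rrm1 and Rrm2 all lie below 0, and those for Ampd2, Samhd1 and Uck2 lie on both sides.

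Each compound was also set against vehicle in a fit with 3 groups. That fit takes the spread from the vehicle pair and, with more weight, from a prior over the tested genes. It assumes that each lone array varies likewise. The calls rest on 1 residual and 8.37 prior degrees of freedom and have no replicate of either compound. Against vehicle, TC gave 4 genes lower (Tk1, Dtymk, Dut and Dck) and 2 higher (Xdh and Ampd3), where 3.81% and 4.36% of all genes were called. S2101 gave 3 lower (Tk1, Dck and Nme1) and 2 higher (Xdh and Ampd3), where 3.33% and 3.37% of all genes were called. The comparisons share the vehicle arrays. Tk1 stood at -0.80 with TC and -0.74 with S2101, Dck at -0.68 and -0.66, Ampd3 at 0.93 and 0.94, and Xdh at 1.54 and 1.77. Dut (-0.51 with TC and -0.30 with S2101) and Nme1 (-0.31 and -0.56) passed for 1 compound each, and neither passed the test between the compounds given next.

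The TC and S2101 arrays were then set side by side, with the doses unknown. None of the 37 genes passed the test between them (limma; 0 called in either direction), and over all genes 0.033% were lower and 0% higher with TC. At an unadjusted p under 0.05 the count was 3 of 37, against 792 of 9097 over all genes. They were Gmps (TC minus S2101 0.27), Rrm1 (0.29) and Uck2 (-0.32). The other bright probe sets of Rrm1 (823 with TC and 872 with S2101) and Gmps (358 and 423, 292 and 333) read lower with TC. Those of Uck2 read 504 and 501, 400 and 402, and 255 and 350. Over the 37 genes the differences ran from -0.32 to 0.29. Their 95% intervals, which are not adjusted for the number of genes, reached 0.18 to 0.64 to each side. Differences of that size between the arrays, and larger ones under the adjusted test, could have been missed. For Dck the interval of the difference, -0.02, was -0.27 to 0.22, and for Ampd3, -0.02, it was -0.25 to 0.22.

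**Figure D4:**
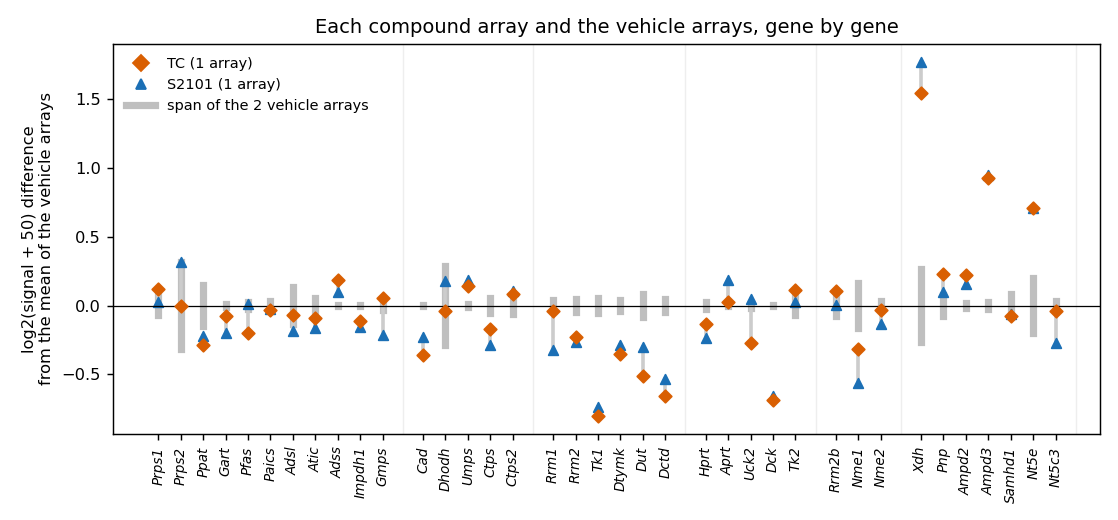
Log2 difference of the TC array (diamonds) and of the S2101 array (triangles) from the mean of the vehicle arrays for each tested gene, grouped by role; the wide grey bars span the 2 vehicle arrays. The compound points lie close together for Dck, Ampd3 and Nt5e and apart for Rrm1, Uck2 and Prps2, and the grey bars are widest for Prps2 and Dhodh.

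Related lists gave a setting for these genes. Of 24 tested DNA replication genes, 13 fell and 1 rose, and the median over the list was -0.44, while the S-phase dNTP enzymes had a median of -0.36. The part of cell cycle position in the S-phase dNTP result was not tested. The largest differences were those of the cyclins Ccne2 (-1.27) and Ccna2 (-0.85), the helicase subunit Mcm5 (-0.95) and the methylation maintenance factor Uhrf1 (-0.92). The gene that rose was the transcription factor E2f2 (0.59 ± 0.10; adjusted p = 0.00450, limma), named after its value was seen. Folate enzymes supply the carbon units for purines and thymidylate, and of 12 tested 3 fell and 0 rose, and the median was -0.27. The mitochondrial enzymes Aldh1l2 (-0.60 ± 0.11; 0.0100, limma) and Mthfd2 (-0.59 ± 0.09; 0.00348, limma) fell, as did Mthfd1l (-0.37 ± 0.10; 0.0484, limma), which was named after its value was seen. Shmt1 (-0.48) and Fpgs (-0.39) did not pass (0.0860 and 0.164, limma).

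Among 13 other nucleotide kinases, transporters and salvage genes, 2 fell and 0 rose, and the median was -0.00. Adenylate kinase 4 (Ak4), a mitochondrial form, read 357 and 289 with vehicle against 140.3 and 158 (-0.90 ± 0.16; adjusted p = 0.00743, limma). Ak4 reached the filter only through its vehicle arrays and did not pass without it (0.0877, limma). Adenosine kinase (Adk), which returns adenosine to AMP, read 4184 and 4297 against 2953 and 3117, lower without overlap (-0.48 ± 0.07; 0.00324, limma). The nucleoside transporter Slc29a3 (0.36) and the kinase Uckl1 (0.21) did not pass. Of 14 other breakdown and interconversion genes, 2 rose and 0 fell, and the median was -0.03. Aldehyde oxidase 1 (Aox1), a molybdenum enzyme related to Xdh, read 219 and 259.8 against 390.3 and 375 (0.58 ± 0.14; 0.0313, limma), and the surface phosphodiesterase Enpp3 rose by 0.50 ± 0.11 (0.0173, limma). Nudt16 (0.44) and the cytidine deaminase Cda (0.39) did not pass (0.0540 and 0.246, limma).

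**Figure D5:**
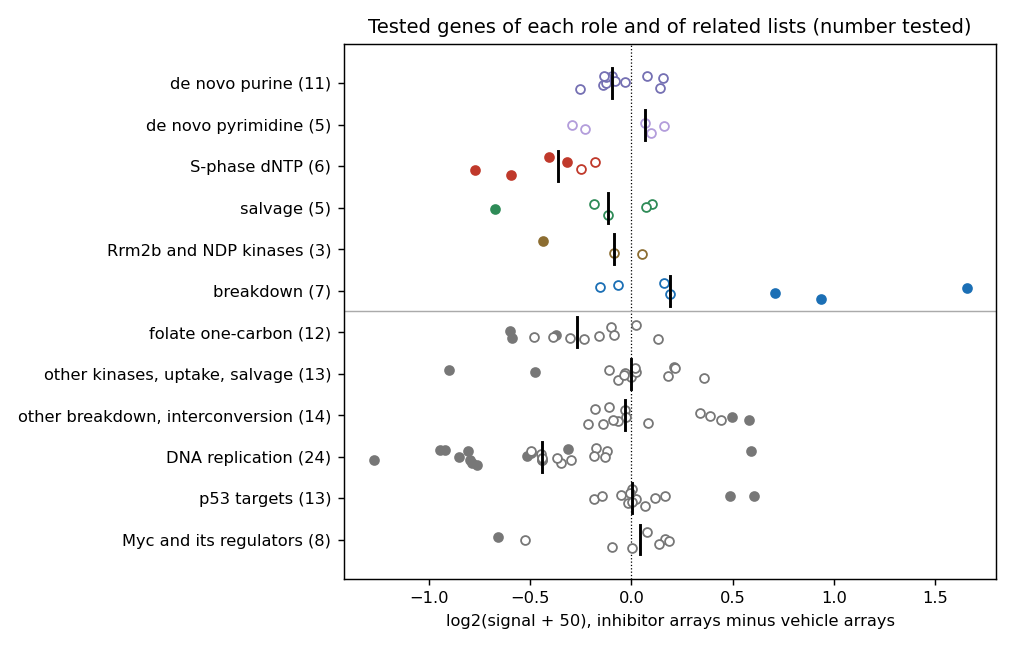
Log2 difference between inhibitor and vehicle arrays for every tested gene of the 6 roles (coloured) and of 6 related lists (grey), with the number tested in brackets; filled points passed at an adjusted p under 0.05 and black bars are medians. The medians of the S-phase dNTP (-0.36), folate (-0.27) and DNA replication (-0.44) groups lie to the left of 0, and the breakdown group (0.19) lies to the right.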

How the data were processed

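The authors deposited linear intensities, 1 per probe set, from MAS5. This algorithm and Affymetrix Expression Console are named in the submitters' processing notes, with no versions or scan batches given in the sources used here. Labelling started from 250 ng of total RNA, per the labels' protocols. The deposited intensities had a 2% trimmed mean of 500 on every array and medians of 63.4 to 75.1. Of 45101 probe sets, 34945 carried 1 symbol in the platform annotation. Signals were turned into log2(signal + 50), with no further normalization. The two-sided tests came from limma 3.58.1 under R 4.3.3, with an intensity trend in eBayes, over the 9097 genes at or above the median gene, with Benjamini-Hochberg adjustment at 0.05. Taking TC and S2101 as 2 samples of inhibition was a choice made here; that fit has 2 residual and 8.08 prior degrees of freedom, and the fit with 3 groups has 1 and 8.37. Both were tested on simulated data that gave the compounds equal effects and all arrays of a gene the same spread. Such data cannot check the pooling of the compounds or the spread of a lone array. Gene identifiers of all 40 measured genes matched the RefSeq table. Every gene of the list is reported, and of each related list the 4 with the largest difference, with exceptions stated. The genes, roles and lists were chosen with earlier results of these data known.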

Additional observations from a re-analysis of the deposited data

How the results depend on the processing

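None of the 9 called genes changed sign under the alternatives run: over 112 combinations of a called gene and an alternative setting they passed in 84 and missed the threshold in 28, and genes not called at first passed in 5 others. Offsets of 2% and 50% of the trimmed mean left the 9 calls as they were, and quantile normalization and centring each added Rrm2. Calls rose over all genes too: quantile normalization gave 398 lower and 437 higher and centring 442 and 396, against 340 and 389 in the main test. Testing all 18193 genes left 1 gene lower (Dck) and 2 higher (Xdh and Ampd3), 0 of the S-phase genes lower, and, for TC and for S2101 alike, 0 lower and 0 higher (limma). Over all genes that setting called 123 lower and 143 higher, against 340 and 389. A filter at the 75th percentile, which tests 21 of the genes, gave 3 lower (Dck, Dtymk and the newly called Rrm2), so 2 S-phase genes lower, and 1 higher (Ampd3). Over all genes that filter called 198 lower and 259 higher. Without the intensity trend Dtymk, Dut and Nme1 lost their calls and 3 were lower, 2 of them S-phase, with 0 lower and 1 higher for TC and 0 lower for S2101, and 207 and 216 over all genes. With probe sets averaged Dtymk, Dut, Nme1 and Nt5e lost theirs and 3 were lower, 2 of them S-phase, and 245 and 233 over all genes. Leaving out 1 array at a time gave 3 to 4 genes lower and 1 to 3 S-phase genes lower. Without vehicle 1, Prps2 was called higher (0.47). The comparisons of single compounds have no such values, since each compound is 1 array and no residual degrees of freedom are left without a vehicle array. Blocking on the numbers in the sample descriptions, where vehicle 1 shares a number with TC and vehicle 2 with S2101, gave 10 calls, 7 lower with 5 of them S-phase and 3 higher, sharing the 9 and adding Rrm2, and 583 lower and 640 higher over all genes. For the inhibitors that number may only count the compounds. Deviations of vehicle 1 and TC from their group means correlated at r = 0.0651, so the numbers are not shown to pair the arrays.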

Other observations

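In lists tied to regulators of nucleotide metabolism, 1 of 8 tested Myc network genes fell and 2 of 13 tested p53 targets rose. Over all genes tested, 3.74% fell and 4.28% rose. Of 8 tested genes of the Myc network, Myc, a transcription factor known to drive nucleotide synthesis genes, fell from 653 and 630.04 to 378 and 397 (log2 difference -0.66 ± 0.11; adjusted p = 0.00526, limma). The other 7 did not pass in this comparison, and the list's median was 0.04. Mxd3, a partner of Max, had the next largest difference (-0.53 ± 0.27; 0.2845, limma). With TC alone it was lower (-0.96; adjusted p = 0.0331, limma) and with S2101 it stood at -0.09 (0.879, limma), each compound being 1 array. Mxi1 (0.19) and Mycl (0.17) had the next largest differences in the comparison of both inhibitors. Of 13 tested p53 targets, Trp53inp1 (0.61) and Gadd45a (0.48) rose and 0 fell, and the median was 0.01. The p53 targets Zmat3 (-0.19) and Ei24 (0.17) did not pass (0.353 and 0.234, limma), nor did Rrm2b.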
